A study of Mus musculus with 6 samples.

Results

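Reactive oxygen species are made on purpose and removed on purpose in microglia, the resident immune cells of the brain. The phagocyte NADPH oxidase takes electrons from NADPH and passes them through a membrane core to oxygen, which yields superoxide. Superoxide dismutases convert superoxide to hydrogen peroxide, and catalase, glutathione peroxidases and peroxiredoxins remove the peroxide, drawing on glutathione and thioredoxin. The transcription factor NRF2, held back by KEAP1, switches on many of these protective genes through antioxidant response elements in their promoters. PGC-1α, a coactivator that drives the formation of mitochondria, is known to raise several antioxidant enzymes in other cells, and the study measured superoxide, superoxide dismutase activity and lipid peroxidation by other assays.

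The expression of 40 genes of this system was examined in microglia of mice with acute ischemic stroke (AIS). There were 4 NADPH oxidase subunits and 36 genes of the antioxidant side, which comprise the enzymes, their partners and the regulators NRF2 and KEAP1. The genes were a chosen list, matched by RefSeq symbol to the probes of a mouse expression array, and all 40 had a probe. Of the 23462 named genes on the array 18222 could be tested, among them 37 members: the 4 subunits and 33 antioxidant genes. Cat, Gsr and Gsta4 were not tested, because the scanner software had marked too many of their spots as outliers.

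The 6 samples came from 2 groups of 3, each hybridised to 1 array. The control group was PGC-1α f/f littermates, which carry a loxP-flanked PGC-1α allele with an eGFP tag and depend on Cre for its overexpression. The other group (mPGC-1α) carried this allele together with tamoxifen-inducible Cre under Cx3cr1, which is active in microglia and also in other myeloid cells. These mice were designed to overexpress PGC-1α in microglia. Tamoxifen was given before the stroke in the study, and the array labels do not say which animals received it. All animals had a C57BL/6 background, were labelled male and 10 weeks old, and had AIS by transient middle cerebral artery occlusion, and the cells were taken by magnetic selection for the receptor P2RY12. The time after stroke and whether a sample pooled animals were not given for the arrays, so p-values measure the spread between these samples.

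The labelled state of the samples was examined first. Ppargc1a, which encodes PGC-1α, was not higher in the mPGC-1α group. A level here is the log2 intensity of a probe minus the 75th percentile of its array, so 0 is that percentile. On its brighter probe (A_51_P279038) the level was -1.44, -0.94 and -0.93 in controls 1, 2 and 3 and -1.49, -1.27 and -1.54 in the mPGC-1α samples. The difference, always mPGC-1α minus control, was -0.33 (standard error, SE, 0.24; limma adjusted p = 0.817). Where this probe lies relative to the transgene was not known, so mPGC-1α below names the label of an array. Cx3cr1, which drives Cre, was lower on all 3 mPGC-1α arrays on probe A_52_P99810, with a difference of -1.25 (SE 0.24, limma adjusted p = 0.669). Without control array 2 this difference was -1.41 (limma adjusted p = 0.0128), in a fit where 5.42% of all tested probes had an adjusted p under 0.05. On a second Cx3cr1 probe (A_55_P2007964), not tested, the groups overlapped, with 3.57, 4.02 and 3.35 in controls and 3.17, 3.26 and 3.48 in the mPGC-1α group with marked spots kept. The P2ry12 probe gave levels of 3.54 to 4.01 on the 6 arrays with outlier-marked spots kept, and the Tmem119 probe 4.76 to 5.11, so these microglial markers were present on every array.

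The sex-linked genes went against the male label on 5 of the 6 arrays. Xist, the RNA that silences an X chromosome in female cells, lay between -0.97 and -0.51 on 5 arrays and at -5.21 on control array 2. Genes of the Y chromosome (Uty, Kdm5d, Eif2s3y, Ddx3y) had 7 probes, of which 4 passed the background test in control 2 and no other sample. Eif2s3y probe A_55_P2846101 was well above background on control arrays 1 and 2, at -6.40 and -1.19, and of the other Kdm5d probes A_55_P2731516 was above it on all 6 arrays and A_55_P2302973 on none. Control array 2 was thus the array whose pattern matched the male label. The other 5, all mPGC-1α arrays among them, had the higher Xist level. Apparent sex was therefore unbalanced between the groups, and its part in the differences was not tested. Results that turn on control array 2 are also given without it, which does not mean that its label is the wrong one. Arrays 3 of both groups lay on a second slide and had the most outlier-marked spots, 3010 and 4931 of 59305, against 549 to 1094 on the arrays of slide 1. Marks fell almost entirely on bright spots and hit 19 of the 58 member probes on mPGC-1α array 3, and a difference within a slide is given where it matters. Signals were well above background on 71.0% to 86.5% of spots, and 0 spots were saturated. Among marker genes of other cells, the median difference was 0.71 for neurons (16 of 18 positive), 0.86 for oligodendrocytes (13 of 14) and 0.65 for astrocytes (10 of 11), against 0.17 for microglia and 0.09 for all named genes. Monocyte and macrophage markers had a median of -0.17 (4 of 15 positive), and 0 markers of any list were called. In units of the 75th percentile, the summed level on control and mPGC-1α arrays was 38.5 to 61.0 and 58.6 to 70.2 for neurons. For oligodendrocytes it was 13.1 to 19.9 and 23.6 to 34.8. For astrocytes it was 18.4 to 27.3 on the control arrays and 23.4, 68.4 and 27.0 on mPGC-1α arrays 1, 2 and 3. Only mPGC-1α array 2 thus lay above the controls for astrocytes. Neutrophil markers come from cells that also carry the oxidase. They summed to 206.0, 289.5 and 283.6 on control arrays 1, 2 and 3. On the mPGC-1α arrays they summed to 171.8, 315.0 and 292.7. Monocyte and macrophage sums were 59.4, 76.4 and 88.0 in controls and 46.5, 98.0 and 87.2 in the mPGC-1α group. Both sums were lowest on mPGC-1α array 1. Erythrocyte markers summed to 65.0, 176.5 and 82.4 on control arrays 1, 2 and 3 and to 81.4, 173.1 and 128.2 on the mPGC-1α arrays. The part of these cells in the values below was not tested, and in RNA of a cell preparation fewer cells of a type and less RNA per cell cannot be told apart.

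Neither side of the system changed past the threshold. With limma's moderated test and Benjamini-Hochberg adjustment over 40745 probes, 0 of the 37 tested members were called at 0.05, as were 0% of all tested probes, where the smallest adjusted p was 0.573 and 2912 probes had an unadjusted p under 0.05. At an unadjusted p under 0.05, 3 members lay lower in the mPGC-1α group, the oxidase subunit Ncf1 and the antioxidant genes Nqo1 and Gpx8, and 0 lay higher. The background share was 2.97% of named genes lower and 2.97% higher. Among the 27 members with all 6 values the groups did not overlap for 4. Ncf1 and Nqo1 were lower, where 3.87% of 16189 genes were, and Srxn1 and Glrx2 were higher, where 7.34% were. The median difference of the 33 antioxidant members was 0.04, with 18 positive (54.5%), beside a median of 0.09 and 61.7% positive over all named genes. The median of the 4 oxidase subunits was -0.39, and it was 0.14 without control array 3, -0.023 without control array 1, -0.093 with the slide as a block and -0.096 with marked spots kept. Over the 25 antioxidant members with 6 values, the median level was 1.25, 1.099 and 1.53 on the control arrays and 1.53, 1.905 and 1.54 on the mPGC-1α arrays.

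**Figure D1:**
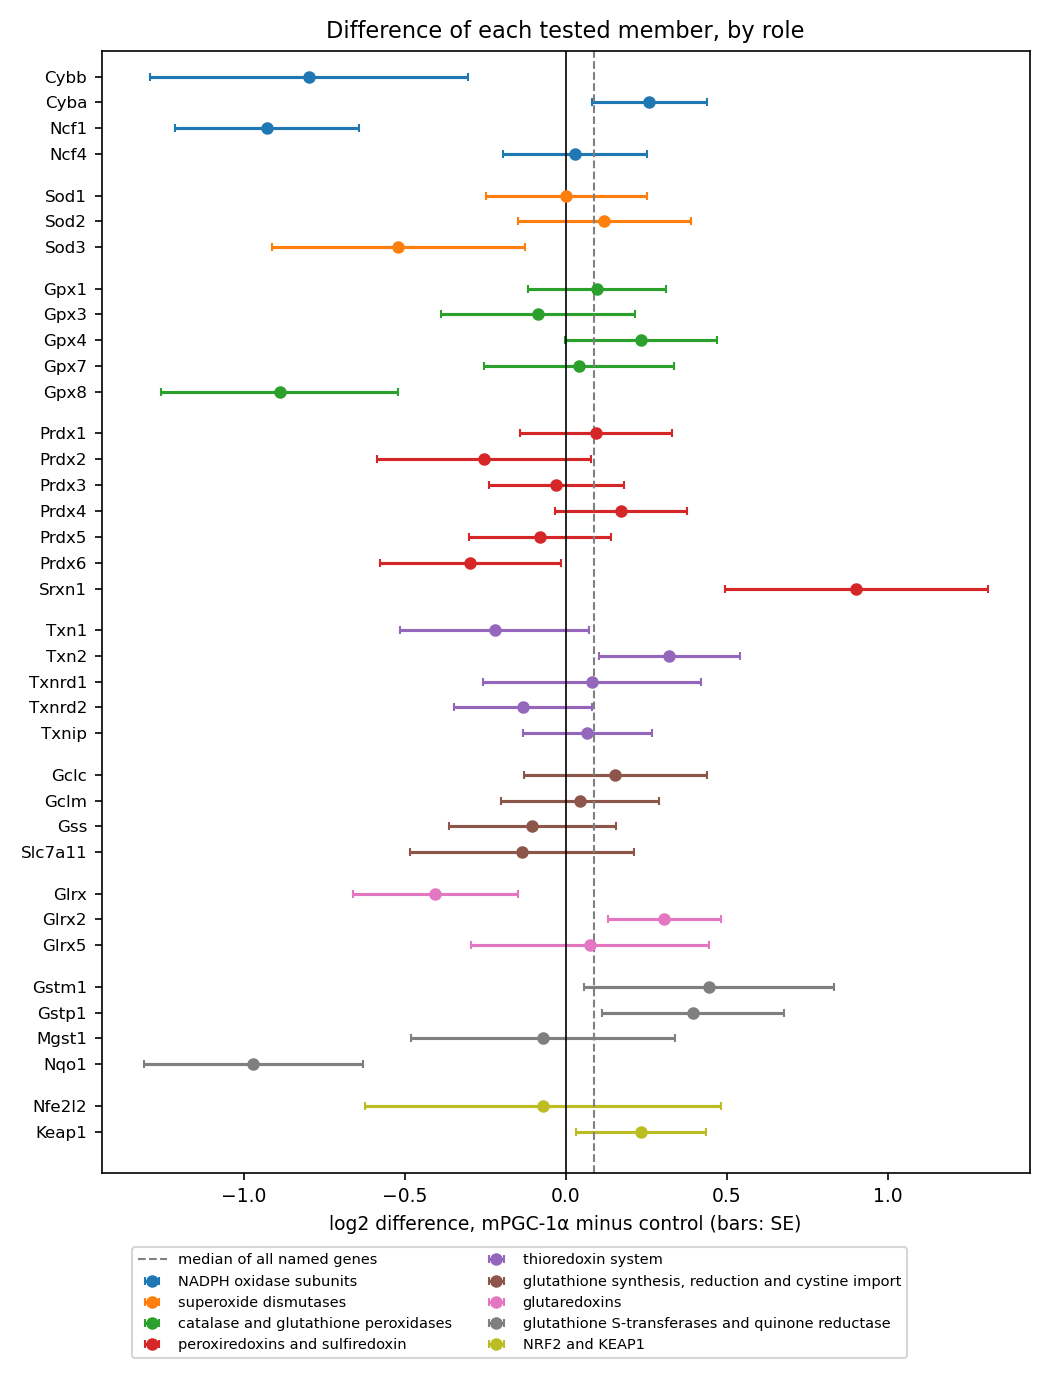
Log2 difference, mPGC-1α minus control, of the 37 tested members on the brightest tested probe, grouped and coloured by role. Points are limma estimates, bars are ±1 SE, and the dashed line is the median of all named genes at 0.09. Nqo1, Ncf1, Gpx8, Cybb and Srxn1 lie farthest out, at -0.97, -0.93, -0.89, -0.80 and 0.90, and the others lie between -0.52 and 0.44.

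The oxidase subunits were taken first. The membrane core is formed by Cybb (gp91phox, also NOX2), which carries the electrons, and Cyba (p22phox), which stabilises it. Cybb was measured on probe A_52_P444628 at 1.80 and 2.75 in controls 1 and 3 and at 0.79 and 2.16 in mPGC-1α samples 1 and 2, as the other 2 spots were marked. The groups overlapped. The difference over 2 against 2 values was -0.80 (SE 0.49, limma adjusted p = 0.788). With the marked spots kept, at 1.67 on control array 2 and 2.18 on mPGC-1α array 3, the difference shrank to -0.36. A second Cybb probe (A_55_P2082733), unmarked on all arrays, gave -0.30. The low value came from mPGC-1α array 1 on both probes, 0.79 and 0.03. Cyba had levels of 3.97, 4.38 and 4.13 in controls and 4.34, 4.36 and 4.56 in the mPGC-1α group. Its groups overlapped, with a difference of 0.26 (SE 0.18, limma adjusted p = 0.805), and its second probe gave 0.18.

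Ncf1 encodes p47phox, the cytosolic organiser that brings the activating subunits to the membrane core, and it had the smallest adjusted p of the 4. On probe A_51_P207031 the level was 3.11, 2.01 and 2.95 on the control arrays and 1.74, 1.61 and 1.94 on the mPGC-1α arrays. All mPGC-1α arrays lay below all controls, with control array 2 nearest to them. The mean was 2.69 ± 0.59 (SD, n = 3) in controls and 1.76 ± 0.17 (SD, n = 3) in the mPGC-1α group, 1.90-fold lower. The difference of -0.93 had an SE of 0.29 and a 95% interval of -1.57 to -0.28. It did not pass adjustment over all probes (limma adjusted p = 0.669), and an exact permutation test gave p = 0.1, the smallest two-sided value that 3 against 3 arrays allow. It was -0.89 within slide 1 and -1.01 on slide 2. Without control array 2 the difference was -1.27 with a limma adjusted p = 0.00553, in a fit that called 5.42% of all tested probes and 1 member, Ncf1.

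The other Ncf1 probes did not show this difference. A_55_P2071466 was marked on 3 arrays and so was not tested. With marks kept its levels were 3.13, 2.76 and 3.21 in controls and 2.98, 2.70 and 3.39 in the mPGC-1α group, a difference of -0.01 (SE 0.22). The groups overlapped. The dim probe A_55_P2510428, at -3.71 to -3.03, gave 0.09. The lower Ncf1 level thus held for 1 of 3 probes of the gene. Which transcript part each probe reads was not analysed here.

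Ncf4 encodes p40phox, which binds a membrane lipid and supports oxidase activity on phagosomes. Its level was 1.70, 1.68 and 2.02 in controls and 1.72 and 1.93 on mPGC-1α arrays 1 and 2, with array 3 marked. The difference was 0.03 (SE 0.22, limma adjusted p = 0.989), and the groups overlapped. The direction of Ncf4 turned with the scaling: it was -0.05 under quantile normalization.

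**Figure D2:**
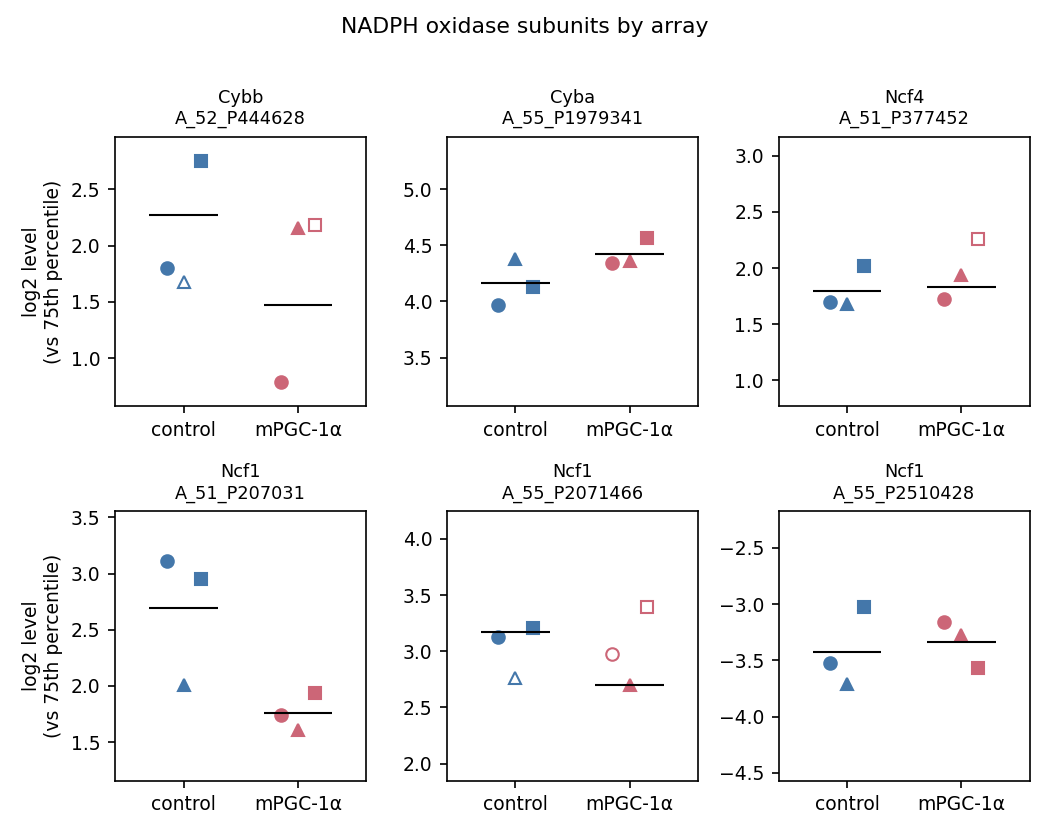
Log2 level by array, relative to the 75th percentile of the array, of the brightest tested probe of Cybb, Cyba, Ncf4 and Ncf1 and of both further Ncf1 probes. Circles, triangles and squares are replicates 1, 2 and 3, open symbols are outlier-marked spots, which were left out, and lines are means of the unmarked values. The groups separate on Ncf1 probe A_51_P207031 and overlap on A_55_P2071466 with marked spots kept.

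Other oxidase genes, those of the wider NADPH oxidase and its regulators, were read from a second list. Of 12 tested, 0 were called and 0 had an unadjusted p under 0.05 in either direction, 6 differences were positive and 6 negative, and the median was -0.00. Hvcn1, a proton channel that balances the charge moved by the oxidase, was at 2.59, 2.31 and 2.46 in controls and 2.94, 2.74 and 2.80 in the mPGC-1α group. It lay higher without overlap, by 0.37 (SE 0.18, limma adjusted p = 0.719). The GTPase Rac2, which activates the complex in leukocytes, differed by -0.14.

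The superoxide dismutases did not differ between the groups beyond the spread of the arrays. Sod1, the cytosolic copper and zinc enzyme, was at 2.91, 3.67 and 3.34 in controls and 2.92, 3.59 and 3.42 in the mPGC-1α group. Its difference was 0.00 (SE 0.25), with a 95% interval of -0.56 to 0.57. Sod2, the mitochondrial manganese enzyme, was at -1.76, -1.45 and -2.03 in controls and -1.95, -1.54 and -1.40 in the mPGC-1α group. The groups overlapped and the difference was 0.12 (SE 0.27), with an interval of -0.48 to 0.72. Sod3, the secreted enzyme, was at -0.73, -0.30 and -0.02 in controls and -1.78, -0.62 and -0.21 in the mPGC-1α group. Its difference of -0.52 (SE 0.39) came mostly from mPGC-1α array 1, without which it was -0.06. The limma adjusted p was 0.999 for Sod1, 0.953 for Sod2 and 0.820 for Sod3.

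Catalase, which breaks down hydrogen peroxide in peroxisomes, could not be tested. The single Cat probe (A_52_P679769) was unmarked on 2 arrays, control 1 at 0.93 and mPGC-1α 1 at -0.71. With marked spots kept, the levels were 0.93, 0.35 and 0.92 on the control arrays and -0.71, -0.13 and -0.15 on the mPGC-1α arrays. The groups then did not overlap, and the difference was -1.06 (SE 0.26), -1.06 within slide 1 and -1.07 on slide 2, a level 2.09-fold lower. The limma adjusted p over all probes with marks kept was 0.655, so Cat did not pass there either, and 4 of its 6 values were spots that the scanner software had marked.

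Most glutathione peroxidases use glutathione to reduce peroxides. Gpx1, the abundant cytosolic and mitochondrial form, was at 4.67, 5.39 and 4.99 in controls and 4.91, 5.32 and 5.11 in the mPGC-1α group, a difference of 0.10 (SE 0.22, limma adjusted p = 0.952). Gpx4, which reduces lipid peroxides in membranes and protects against ferroptosis, was at 4.45, 5.14 and 4.78 in controls and 4.96 and 5.08 on mPGC-1α arrays 1 and 2, with array 3 marked. The difference was 0.23 (SE 0.24, limma adjusted p = 0.873), and the groups of both genes overlapped. Gpx3, the secreted form, differed by -0.09, and the endoplasmic reticulum enzyme Gpx7 by 0.04. Gpx8, also of the endoplasmic reticulum, was at -0.55, 0.29 and 0.12 in controls and -1.65, -0.27 and -0.89 in the mPGC-1α group. Its difference of -0.89 (SE 0.37) was 1.85-fold lower, with a limma adjusted p = 0.686. Within slide 1 it was -0.83 and on slide 2 -1.01, but the groups overlapped between control array 1 and mPGC-1α array 2. Leaving out mPGC-1α array 1 brought it to -0.53.

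Most peroxiredoxins reduce hydrogen peroxide with thioredoxin, and sulfiredoxin repairs several of them when they are over-oxidised. The 6 peroxiredoxins differed by -0.30 (Prdx6) to 0.17 (Prdx4), and their limma adjusted p-values were 0.862 or more. Prdx3, the mitochondrial form, was at 0.36, 0.53 and 0.71 in controls and 0.43, 0.37 and 0.72 in the mPGC-1α group, a difference of -0.03 (SE 0.21) whose sign turned with the scaling, to 0.07 with the percentile taken over unmarked probes. Prdx4, the form of the endoplasmic reticulum, was at 2.13, 2.30 and 2.30 in controls and 2.31 and 2.51 on mPGC-1α arrays 1 and 2. These 5 values did not overlap, with a limma adjusted p = 0.898.

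Srxn1, which encodes sulfiredoxin and is a known NRF2 target, had the largest positive difference of the 37 tested members. Its level was 1.35, 1.099 and -0.42 in controls 1, 2 and 3 and 1.74, 1.43 and 1.57 in the mPGC-1α samples. The mPGC-1α arrays lay close together and above all controls, and control array 3 was far below the other two. The mean was 0.68 ± 0.96 (SD, n = 3) in controls and 1.58 ± 0.15 (SD, n = 3) in the mPGC-1α group, 1.87-fold higher. The difference of 0.90 (SE 0.41) had a 95% interval of -0.01 to 1.82, a limma adjusted p = 0.704 and an exact permutation p = 0.1. It was 0.36 within slide 1 and 2.00 on slide 2, and 0.35 without control array 3.

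The thioredoxin system passes electrons from NADPH to most peroxiredoxins. The cytosolic and mitochondrial thioredoxins differed by -0.22 (Txn1, SE 0.29) and 0.32 (Txn2, SE 0.22), and the reductases by 0.08 (Txnrd1) and -0.13 (Txnrd2), with limma adjusted p-values of 0.805 or more. Txnip, whose product binds and inhibits thioredoxin, differed by 0.07 (SE 0.20) on its brightest tested probe. Its second probe (A_55_P2006255) gave another picture, with 3.75, 1.80 and 3.73 on the control arrays and 1.64, 1.71 and 1.49 on the mPGC-1α arrays. Control arrays 1 and 3 stood above the other 4 arrays, and the difference was -1.48 (SE 0.46, limma adjusted p = 0.669). The second Txnrd2 probe (A_52_P193060) had the same arrangement, at -0.51, -1.99 and -0.67 in controls and -2.01, -2.21 and -2.22 in the mPGC-1α group, a difference of -1.10 (SE 0.38, limma adjusted p = 0.669). On both of these probes and on A_51_P207031 of Ncf1, control array 2, which stood apart on Xist, lay nearest to the mPGC-1α arrays. Without it, the difference was -2.13 on this Txnip probe (limma adjusted p = 0.000628) and -1.56 on this Txnrd2 probe (limma adjusted p = 0.00414), and both were called, in the fit that called 5.42% of all tested probes. On the brightest tested probes it was then 0.019 for Txnip and -0.082 for Txnrd2.

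Of the 15 members with several tested probes, 8 had a probe whose difference was of opposite sign to that of the brightest. The dimmer minus the brighter probe gave -0.22 to 0.21 for Cyba, Glrx2, Gstm1, Mgst1, Prdx1 and Prdx2. The gap was wider for the rest, down to -1.55 for Txnip and up to 1.02 for Ncf1.

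**Figure D3:**
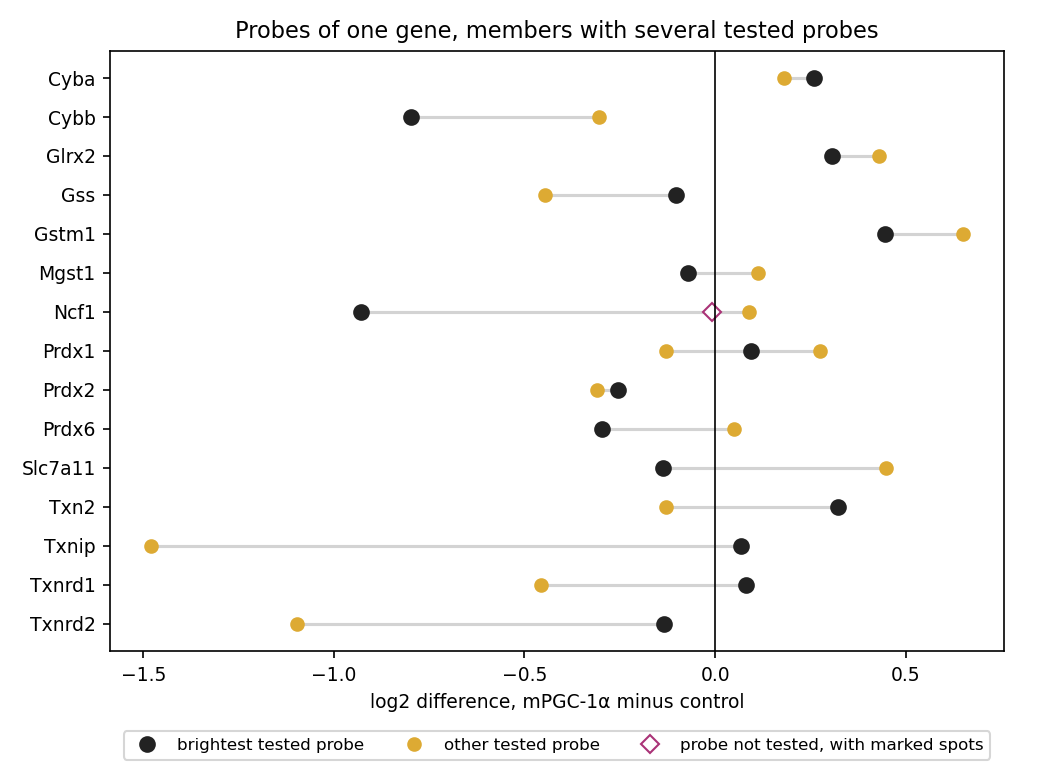
Log2 difference, mPGC-1α minus control, on each tested probe of the 15 members with several tested probes. Black points are the brightest tested probe, yellow points the others, and the open diamond is the Ncf1 probe that was not tested, with its marked spots kept. Txnip, Ncf1 and Txnrd2 have the widest gaps, with the yellow minus the black point at -1.55, 1.02 and -0.96.

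Glutathione is built by glutamate-cysteine ligase and glutathione synthetase from cysteine, part of which enters as cystine through Slc7a11. The catalytic subunit Gclc differed by 0.15 (SE 0.28), the modifier subunit Gclm by 0.04 (SE 0.25), the synthetase Gss by -0.10 (SE 0.26) and the importer Slc7a11 by -0.14 (SE 0.35). The limma adjusted p was 0.941 or more for these 4. Gsr, which restores oxidised glutathione with NADPH, could not be tested, and with marks kept its levels were 3.98, 4.54 and 4.27 in controls and 4.002, 4.84 and 4.18 in the mPGC-1α group, overlapping.

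Glutaredoxins use glutathione to reduce protein disulfides. Glrx2, a form found in mitochondria, was at 5.70, 6.19 and 6.07 in controls and 6.28, 6.24 and 6.36 in the mPGC-1α group. The groups did not overlap by a narrow margin, and the difference was 0.31 (SE 0.17, limma adjusted p = 0.772), 0.31 within slide 1 and 0.30 on slide 2, while its second probe gave 0.43. It turned to -0.04 under normexp with quantile normalization and to -0.00 in the authors' values, so its direction depended on the scaling. The cytosolic Glrx differed by -0.41 (SE 0.26) and the mitochondrial iron-sulfur cluster protein Glrx5 by 0.07 (SE 0.37).

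Glutathione S-transferases join glutathione to reactive compounds, and NQO1 reduces quinones by a route that avoids radical intermediates. Gstm1 differed by 0.44 (SE 0.39), with 1.21, 1.54 and 1.97 in controls and 1.53, 2.99 and 1.54 in the mPGC-1α group. Only mPGC-1α array 2 was high, the difference was 0.88 within slide 1 and -0.43 on slide 2, and it was -0.042 without that array. Gstp1 differed by 0.39 (SE 0.28, 2 against 2 values) and the membrane form Mgst1 by -0.07 (SE 0.41). Gsta4, which was not tested, gave -0.66 (SE 0.39) with marks kept. Nqo1, a standard NRF2 target, had the largest negative difference of the tested members. Its level was -1.29, -1.06 and -0.54 on the control arrays and -2.61, -1.56 and -1.63 on the mPGC-1α arrays. The groups did not overlap, and mPGC-1α array 1 was the lowest. The mean was -0.96 ± 0.38 (SD, n = 3) against -1.93 ± 0.58 (SD, n = 3), 1.96-fold lower. The difference of -0.97 (SE 0.34) had a 95% interval of -1.74 to -0.20, a limma adjusted p = 0.669 and an exact permutation p = 0.1. It was -0.91 within slide 1, -1.09 on slide 2, and -0.63 without mPGC-1α array 1.

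**Figure D4:**
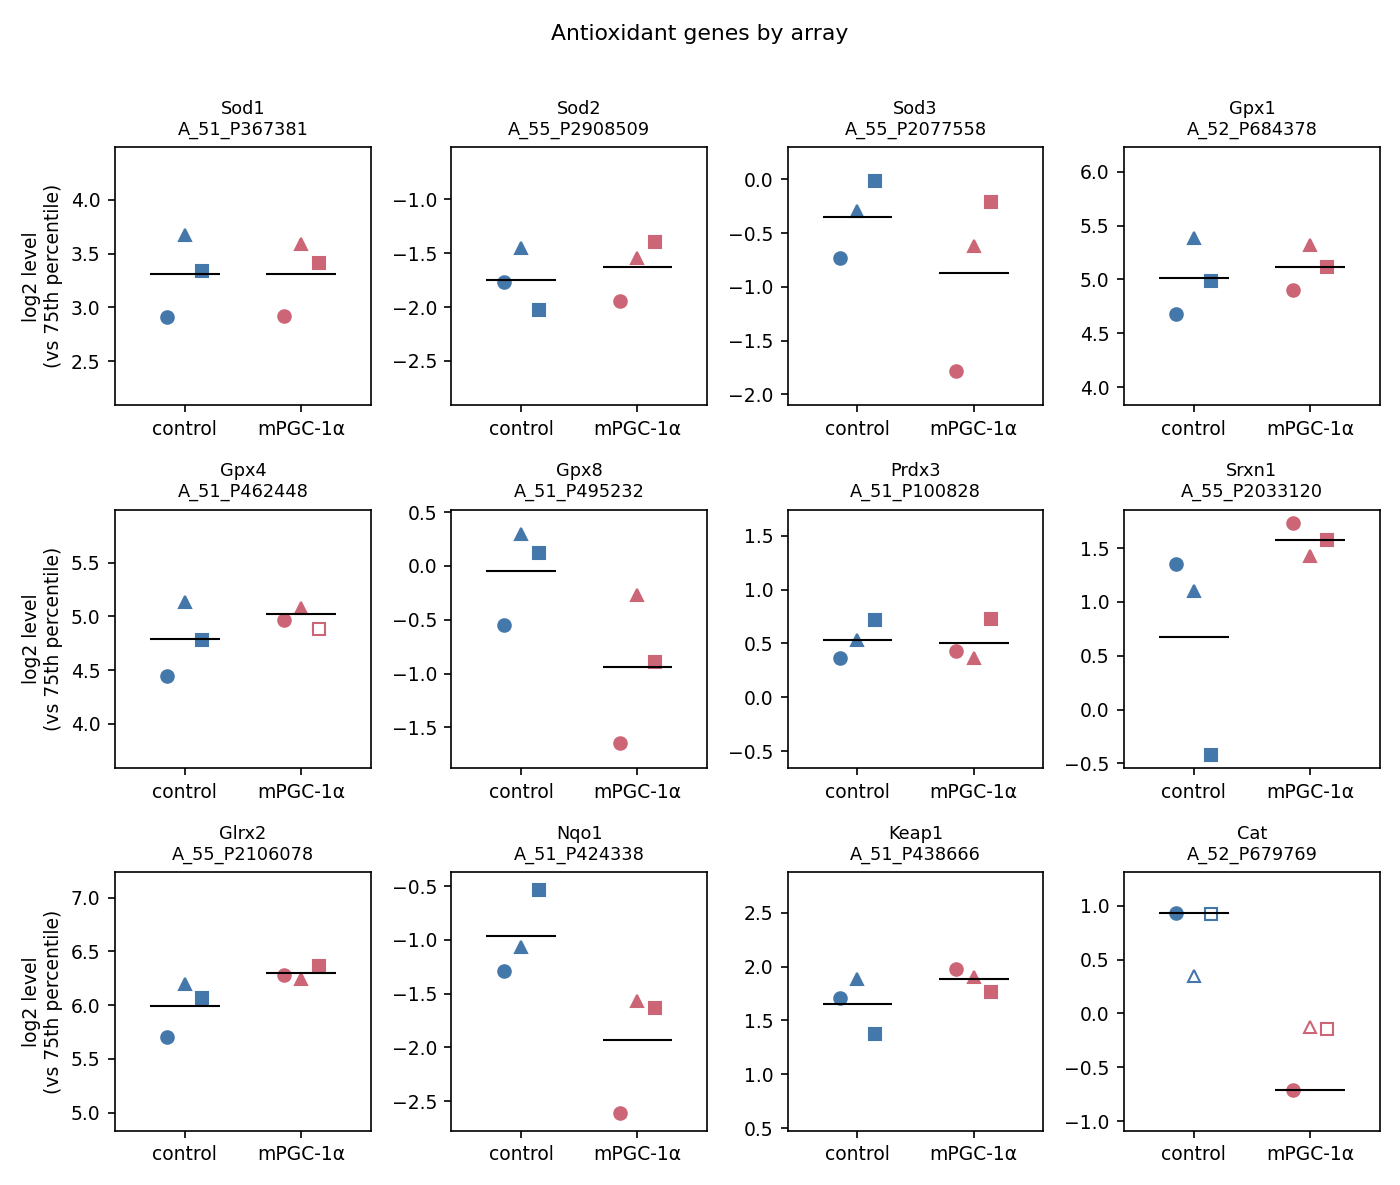
Log2 level by array, relative to the 75th percentile of the array, of 12 antioxidant genes, with symbols as in the plot of the oxidase subunits. Nqo1 lies lower and Srxn1 and Glrx2 lie higher on all 3 mPGC-1α arrays. The Sod, Gpx1, Gpx4, Gpx8, Prdx3 and Keap1 panels overlap, and 4 of the 6 Cat spots are marked.

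Neither regulator was called, and the estimate for Nfe2l2 was too imprecise to show whether the groups were close. Keap1, which holds NRF2 for degradation, was at 1.71, 1.88 and 1.37 in controls and 1.98, 1.91 and 1.77 in the mPGC-1α group. It differed by 0.23 (SE 0.20, limma adjusted p = 0.847), with overlap. Nfe2l2, which encodes NRF2, was tested only on the dim probe A_55_P2720430, with -1.42, -2.86 and -0.21 in controls and -1.35, -1.59 and -1.77 in the mPGC-1α group. The controls spread more widely than the mPGC-1α arrays. Their difference was -0.07 (SE 0.55), with a 95% interval of -1.32 to 1.17. The brighter probe A_51_P411271 was marked on 3 arrays. With marks kept it was at 2.14, 1.36 and 1.38 in controls and 1.96, 0.91 and 2.22 in the mPGC-1α group, a difference of 0.07 (SE 0.35).

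Among 8 tested partners and repressors of NRF2 from another list, 7 differences were positive, the median was 0.46, 0 were called and 0 had an unadjusted p under 0.05. Osgin1, an NRF2 target, differed by 0.56 (SE 0.25), the repressor Bach1 by 0.47 (SE 0.26) and the adaptor Sqstm1 by 0.44 (SE 0.22). Their limma adjusted p-values were 0.708, 0.757 and 0.734.

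The promoters of Nqo1, Srxn1 and Gclm are shown because these 3 NRF2 targets took different places, lowest, highest and near 0. The windows run from 250 bases before to 50 after the annotated start in RefSeq for GRCm38.p6, 5′ to 3′ on the gene's strand, and capitals mark the core of an antioxidant response element, TGACNNNGC or its reverse complement. The Nqo1 window is chr8:107403156-107403455, minus strand, the Srxn1 window chr2:152105274-152105573, plus strand, and the Gclm window chr3:122245307-122245606, plus strand.
Nqo1: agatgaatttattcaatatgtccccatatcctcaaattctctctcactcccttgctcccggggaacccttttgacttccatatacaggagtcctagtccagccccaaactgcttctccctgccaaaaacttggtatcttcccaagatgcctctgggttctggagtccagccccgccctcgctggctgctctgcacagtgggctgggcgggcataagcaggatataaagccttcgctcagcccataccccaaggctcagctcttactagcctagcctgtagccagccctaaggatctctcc
Srxn1: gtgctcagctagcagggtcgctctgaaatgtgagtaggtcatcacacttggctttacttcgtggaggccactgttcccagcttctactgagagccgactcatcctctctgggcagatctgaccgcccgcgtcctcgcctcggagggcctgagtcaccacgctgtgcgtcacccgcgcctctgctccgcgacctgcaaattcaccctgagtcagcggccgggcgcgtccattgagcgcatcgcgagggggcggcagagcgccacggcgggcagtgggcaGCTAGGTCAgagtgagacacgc
Gclm: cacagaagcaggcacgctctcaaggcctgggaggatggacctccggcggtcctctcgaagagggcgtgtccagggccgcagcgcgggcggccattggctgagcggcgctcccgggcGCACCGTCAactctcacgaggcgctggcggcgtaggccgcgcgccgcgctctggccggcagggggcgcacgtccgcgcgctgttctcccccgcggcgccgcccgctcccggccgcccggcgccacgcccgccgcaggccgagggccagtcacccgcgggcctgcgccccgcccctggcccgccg

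The core lay on the reverse strand in Srxn1 and Gclm, its first base at position 29 from the start of Srxn1 and at position -134 from that of Gclm. The Nqo1 window held none. Sequence outside the windows and variants of this core were not searched. A gene without the core here may thus have one farther away, and unmarked variants may lie within the windows. Of the 34 members with a window, 7 held the core (20.6%): Nfe2l2, Srxn1, Gclm, Prdx1, Mgst1, Txnrd1 and Sod1. The share was 14.0% of 27025 genes with a window of the same length. Across these 7, Srxn1 differed by 0.90, and the others lay between -0.07 (Nfe2l2 and Mgst1) and 0.09 (Prdx1). A match of letters is a description of the window and no evidence of binding.

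Enzymes that restore NADPH feed both the oxidase and the antioxidant side. Of 15 tested, 0 were called, 6 differences were positive, and the median was -0.02. Idh1, the cytosolic isocitrate dehydrogenase, alone among them had an unadjusted p under 0.05. Its level was -0.39, -2.10 and -0.21 in controls and -2.05, -2.27 and -1.88 in the mPGC-1α group, a difference of -1.17 (SE 0.45, limma adjusted p = 0.675). The groups overlapped at control array 2. Without that array the difference was -1.76 (limma adjusted p = 0.00321), in the fit that called 5.42% of all tested probes. G6pdx, the entry enzyme of the pentose phosphate pathway, differed by -0.14 (SE 0.31).

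Of 33 further antioxidant and redox genes tested, 0 were called, 22 differences were positive and the median was 0.11. At an unadjusted p under 0.05, Msrb3, a methionine sulfoxide reductase, was lower, at -0.80 (SE 0.31), without overlap, and Selenow was higher by 0.80 (SE 0.32) on 5 values. Hmox1, the NRF2 target heme oxygenase, was at 1.43, 1.88 and 0.35 in controls and 1.85, 2.00 and 1.85 in the mPGC-1α group. It differed by 0.68 (SE 0.34, limma adjusted p = 0.739) and had its low value on control array 3, as Srxn1 had. A short list of mitochondrial antioxidants and uncoupling proteins (6 tested, which include Sod2, Prdx3 and Gpx1) had a median of 0.11 and 0 members with an unadjusted p under 0.05.

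The fit with the replicate number as a block, which compares arrays of the same number, called 0 members and 0.00245% of all tested probes, and 5 members had an unadjusted p under 0.05: Ncf1, Gpx8, Nqo1, Srxn1 and Cybb. With this block and the percentile taken over unmarked probes, an alternative added after the data were seen, 2 members were called, Ncf1 at -0.83 (limma adjusted p = 0.0222) and Srxn1 at 1.00 (limma adjusted p = 0.0163), in a fit that called 4.22% of all tested probes. Calls of these members thus rested on the setting. Without control array 2 the difference was -1.02 for Nqo1, -0.72 for Gpx8 and 1.11 for Srxn1, none of them called there.

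**Figure D5:**
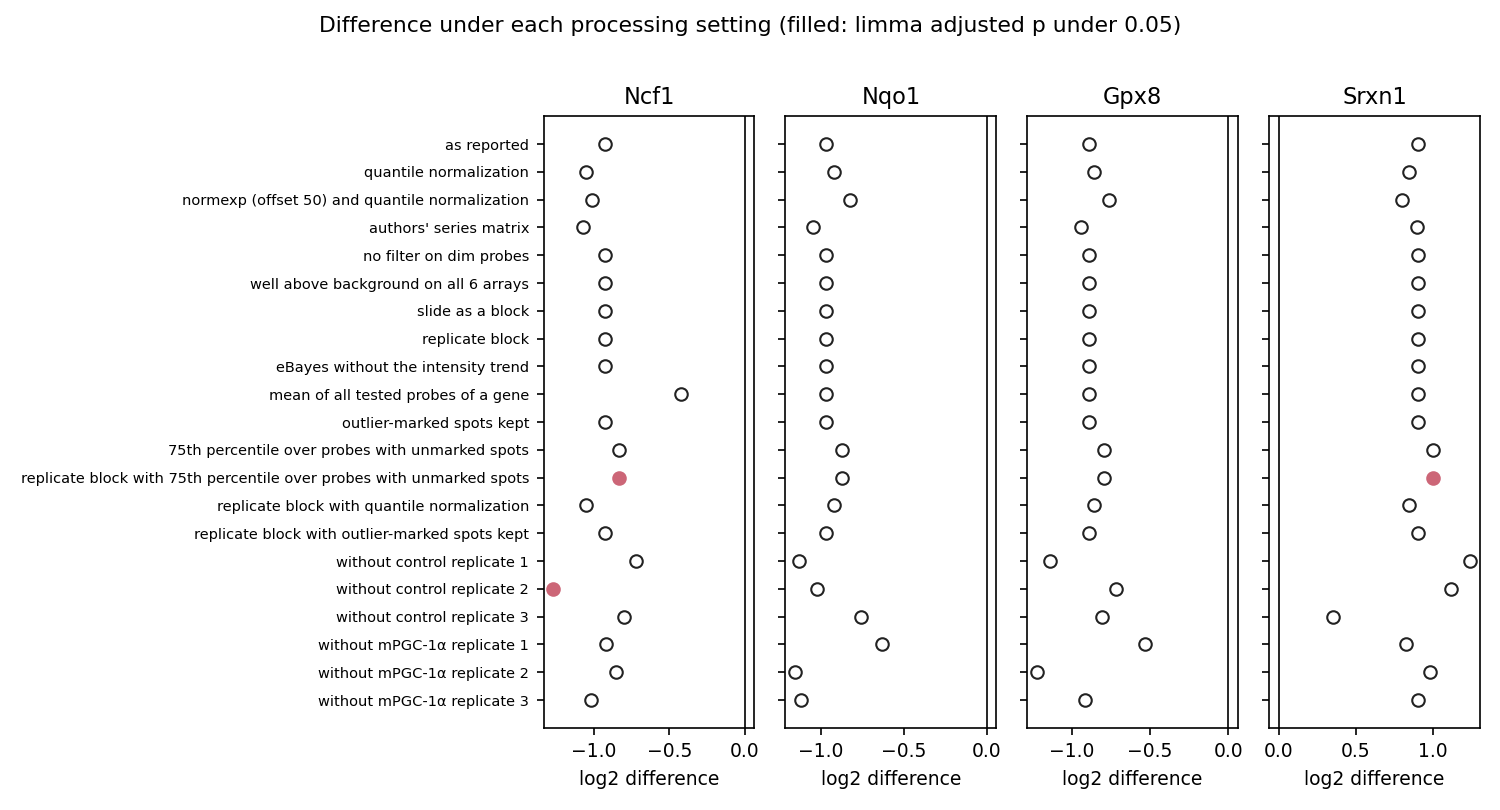
Log2 difference, mPGC-1α minus control, of Ncf1, Nqo1, Gpx8 and Srxn1 under each processing setting, including each array left out in turn. Filled points have a limma adjusted p under 0.05, namely Ncf1 in 2 settings and Srxn1 in 1, and no point crosses 0.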

How the data were processed

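RNA of 6 microglial samples was hybridised by the authors to 1-colour Agilent mouse arrays. The labels disagree on the dye (Cy3 or Cy5), and the scanner files hold 1 green channel. The deposited scanner files, made with Feature Extraction 11.5.1.1, hold linear intensity per spot, background-subtracted and not normalized between arrays. In the authors' series matrix the log2 values were normalized in GeneSpring (46731 probes, r of at least 0.999 with its arrays), with centring not stated, and it was used as an alternative.

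Levels were log2 of the processed intensity minus the 75th percentile of the array over all non-control spots. Outlier-marked spots were left out of the values. The percentile kept them, since marks fell on bright spots unequally between arrays, and the percentile over unmarked probes was added as an alternative. Tested probes were well above background on every unmarked array of 1 group or more, with at least 2 values in each group. Of 56605 probes 33767 (59.65%) matched a RefSeq symbol (GRCm38.p6) through their accession, and 40745 were tested, 3750 of them with a missing value. Groups, taken from the labels, were compared with limma 3.58.1 in R 4.3.3 (lmFit and eBayes with an intensity trend, group as the only term, two-sided, Benjamini-Hochberg over all tested probes, threshold 0.05), since the methods name no array test. An exact permutation test over 20 assignments was run for single members. A gene was read on its brightest tested probe, and that probe was kept in every alternative.

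All values by array are given for the oxidase subunits, for Sod1, Sod2, Sod3, Cat, Gpx1, Gpx4, Prdx3, Nfe2l2 and Keap1, and for each member with an unadjusted p under 0.05 or with groups that did not overlap. Values by array of other genes, and the extra probes of Txnip and Txnrd2, were chosen after they were seen. The members and all lists were chosen with earlier results of these data known.

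The replicate numbers, taken from the labels, were checked for pairing. Deviations from the group mean correlated across probes at 0.247, 0.224 and 0.171 for the same number and at -0.337 to 0.035 otherwise, which meets the rule set for pairing. The values reported do not use the pairs, and the fit with the replicate number as a block is given where it matters. What a number marks is not stated. Alternatives were 16 planned and 4 added after the data were seen. Normexp (offset 50) was run on the median spot intensity. The limma step was tested on simulated data. Precision is limited by the number of arrays.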

Additional observations from a re-analysis of the deposited data

How the results depend on the processing

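Under the 20 alternatives the count of members called stayed at 0, except for 1 (Ncf1) without control replicate 2, so that leaving out single arrays gave 0 to 1, and for 2 (Ncf1 and Srxn1) in the replicate block with the percentile over unmarked probes. The cause was not tested, and both fits called many more probes over the whole array (2130 and 1720, against 0). The replicate block alone changed no call. The median difference of the antioxidant members ran from -0.12 to 0.095 over all alternatives. The median of the oxidase subunits (-0.39) moved to -0.093 with the slide as a block, -0.17 with the mean of all tested probes, -0.096 with outlier-marked spots kept and -0.096 in the replicate block with these kept. Leaving out single arrays took it from -0.41 to 0.14, the latter without control replicate 3, and it was -0.023 without control replicate 1.

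Ncf1, Nqo1, Gpx8, Cybb, Sod3 and Srxn1 kept their direction in every alternative fitted. So did Cyba, Prdx4, Prdx6, Txn2, Txnrd2, Glrx, Gstp1 and Keap1, whose differences were smaller. Cybb and Gstp1 were fitted in 15 alternatives and Prdx4 in 17. For Ncf1 this held for probe A_51_P207031 and the mean of its tested probes, and the untested probe A_55_P2071466 was not followed. The other 23 tested members turned in at least 1 alternative, among them Gstm1, Glrx2, Prdx2 and Gpx4, which were not near 0. Quantile normalization gave Ncf4 -0.052, Sod1 -0.14, Gpx1 -0.080, Prdx1 -0.095, Txnip -0.12, Gclm -0.052 and Nfe2l2 0.022. Normexp with quantile normalization gave Ncf4 -0.047, Sod1 -0.15, Gpx1 -0.059, Gpx4 -0.042, Prdx1 -0.081, Prdx3 0.058, Txnip -0.16, Gclm -0.077, Glrx2 -0.042 and Glrx5 -0.0074. The authors' values gave Ncf4 -0.053, Sod1 -0.12, Gpx1 -0.070, Prdx1 -0.10, Txnip -0.094, Gclm -0.041, Glrx2 -0.0015 and Nfe2l2 0.038. The percentile over unmarked probes gave Ncf4 -0.032, Prdx3 0.066, Prdx5 0.016, Mgst1 0.024 and Nfe2l2 0.023. The mean of all tested probes gave Txnrd1 -0.25, Txnip -0.86 and Slc7a11 0.16. With outlier-marked spots kept Gpx3 was 0.048, also in the replicate block. The replicate block and the slide block each gave Gpx3 0.13 and Gclc -0.034. The replicate block with the percentile over unmarked probes gave Gpx3 0.14, Prdx3 0.066, Prdx5 0.016, Gclc -0.023, Mgst1 0.024 and Nfe2l2 0.023. The replicate block with quantile normalization gave Sod1 -0.14, Gpx1 -0.080, Gpx3 0.11, Prdx1 -0.095, Txnip -0.13, Gclc -0.076, Gclm -0.052 and Nfe2l2 0.022.

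Leaving out single arrays turned Gclc (-0.034 to 0.31), Gclm (-0.094 to 0.28), Glrx5 (-0.20 to 0.52), Gpx1 (-0.074 to 0.28), Gpx3 (-0.31 to 0.13), Gpx7 (-0.061 to 0.21), Gss (-0.36 to 0.071), Gstm1 (-0.042 to 0.69), Mgst1 (-0.49 to 0.38), Ncf4 (-0.032 to 0.14), Nfe2l2 (-0.76 to 0.57), Prdx2 (-0.55 to 0.052), Prdx3 (-0.14 to 0.060), Prdx5 (-0.26 to 0.032), Slc7a11 (-0.48 to 0.12), Sod1 (-0.20 to 0.20), Sod2 (-0.022 to 0.28) and Txn1 (-0.41 to 0.13). Signal over background did not limit the members, whose probes were detected on all 6 arrays, but outlier marks removed Cat, Gsr and Gsta4.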
